A study of Mus musculus with 30 samples.

Results

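The mouse microRNA (miRNA) genes Mir126a, Mir143 and Mir145a, which give miR-126, miR-143 and miR-145, were followed through 30 small RNA libraries of brain cortex. A read was assigned to a gene when its whole sequence was identical, in the sense direction, to a stretch of that gene's precursor hairpin in the GENCODE vM21 annotation of the GRCm38 genome. These are 3 of the 2202 annotated miRNA hairpins, of which 1967 had at least 1 read. All 3 had reads in every group. The study set wild-type (WT) mice against 5xFAD mice, an Alzheimer's disease (AD) model, at 6 months of age. The AD mice were hemizygous for the 5xFAD transgenes, and the WT mice were their littermates without these transgenes. Both genotypes were of both sexes and on a congenic C57BL6/J background, and the labels name no other treatment of the mice. The labels name the tissue as cortex, and the methods as prefrontal cortex. The 5xFAD line models amyloid deposition driven by transgenes and does not carry the tau pathology of the human disease.

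Each genotype was sequenced in 2 ways. Traditional-seq, with 7 libraries of each genotype, ligates adapters to the gel-cut small RNA as it is. PANDORA-seq, with 8 libraries of each genotype, also treats that RNA before ligation with T4PNK, a kinase that repairs RNA ends, and with the demethylase AlkB, which clears base methylation that blocks reverse transcription. Traditional-seq libraries held 9370669 to 17053412 reads of 15 to 42 nt, and miRNA hairpins took 42.2% ± 5.67 of them (SD, n = 14). PANDORA-seq libraries held 54926347 to 105876141 reads of 15 to 45 nt, and hairpins took 2.87% ± 1.11 (SD, n = 16). Levels are therefore given as RPM, the reads of a hairpin among 1000000 reads of the library, and, where the protocols are compared, also as hairpin RPM, the reads among 1000000 hairpin reads. Replicates are the numbered libraries of a group, described as biological replicates. The reads carry no molecular identifiers, so PCR copies are counted as reads.

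A miRNA is cut from a hairpin, and either arm of the hairpin, called 5p or 3p, can be loaded into an Argonaute protein. The loaded strand finds its target mRNAs mainly through its seed, the bases close to its 5′ end. miR-126 is best known from endothelial cells and is transcribed from within Egfl7, which encodes a protein secreted by the endothelium. miR-143 and miR-145 come from 1 cluster and are best known from smooth muscle and other mural cells of vessels, where they take part in keeping the contractile state. In bulk cortex, fewer cells of a type and less RNA per cell cannot be told apart.

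The precursor and the mature 3p strand of miR-126 show which part of the hairpin the reads came from. Capitals in the precursor mark the mature 3p strand, and capitals in the mature strand mark the seed, bases 2 to 8. The sequences are those of RefSeq on GRCm38.p6, where the precursor lies on the plus strand at chr2:26591357-26591429 and the mature strand at chr2:26591402-26591423.
Mir126a precursor: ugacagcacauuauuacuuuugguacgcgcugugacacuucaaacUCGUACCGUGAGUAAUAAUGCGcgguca
mmu-miR-126a-3p: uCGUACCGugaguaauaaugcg

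The next sequences are the most frequent reads of each Mir126a arm, shown because the protocols differed in which of them led. Capitals again mark bases 2 to 8 of the read.
Mir126a 3p read of 22 nt: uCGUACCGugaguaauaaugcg
Mir126a 3p read of 21 nt: uCGUACCGugaguaauaaugc
Mir126a 3p read of 20 nt: uCGUACCGugaguaauaaug
Mir126a 3p read of 19 nt: uCGUACCGugaguaauaau
Mir126a 5p read of 21 nt: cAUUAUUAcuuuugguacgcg
Mir126a 5p read of 20 nt: cAUUAUUAcuuuugguacgc
All of these 3p reads begin at base 46 of the precursor and share 1 seed, and the 5p reads begin at base 9. In traditional-seq the 21 nt form led with 456035 reads, or 57.5% of the 3p arm, before the 22 nt form with 176296 and the 20 nt form with 76603. In PANDORA-seq the 20 nt form led with 6053 reads, or 35.4% of the arm, before the 21 nt form with 5567 and the 19 nt form with 3265. On the 5p arm the 21 nt form led in both protocols, with 1077 traditional-seq reads and 1675 PANDORA-seq reads.

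Among the annotated miRNA hairpins, the reads of the 3 were close to free of ambiguity. Matches to other RNAs or elsewhere in the genome were not searched. No read matched a second hairpin, apart from 7 Mir145a reads in PANDORA-seq. Antisense reads numbered 0 for Mir126a and for Mir143 in both protocols, and 2 in each protocol for Mir145a. Mir126b, a hairpin annotated on the opposite strand of Mir126a, had 0 reads.

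Mir126a (ENSMUSG00000065540.1, 73 nt) overlaps an annotated exon of an Egfl7 transcript and lies within an intron of Gm20532, both on its own strand. Mir143 (ENSMUSG00000065445.3, 63 nt) lies on the minus strand at chr18:61649196-61649258 of GRCm38. It lies outside the exons of its neighbours, 367 nt from the lincRNA gene Carmn. Mir145a (ENSMUSG00000065592.2, 70 nt) lies on the same strand at chr18:61647825-61647894, 1302 nt from Mir143 and 353 nt from the lincRNA gene Bvht.

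In traditional-seq, Mir126a and Mir143 were among the most abundant hairpins, and Mir145a ranked well below them. Over the 14 libraries Mir126a had 795333 reads, 1.12% of all hairpin reads and rank 21 of 1617 hairpins. Mir143 had 578882 reads, 0.815% and rank 28. Mir145a had 8051 reads, 0.0113% and rank 190. By exact matches the order of the first pair was turned round in PANDORA-seq. Mir143 had 115505 reads there, 0.307% of hairpin reads and rank 103 of 1909, Mir126a had 20355, 0.0541% and rank 201, and Mir145a had 4538, 0.0121% and rank 288. With reads that carry 1 mismatch counted as well, Mir143 led on the means in traditional-seq, at 6875 RPM against 6629 for Mir126a. The medians there stood the other way, at 6309 RPM for Mir143 and 6557 for Mir126a. In PANDORA-seq Mir143 led at 117 against 16.3 RPM on the means.

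Mir126a, the endothelial member, had the following levels. In WT traditional-seq libraries it ran from 2260 to 8821 RPM with a median of 5218 (5262 ± 2062, SD, n = 7). In AD traditional-seq libraries it ran from 2090 to 6883 RPM with a median of 4272 (4420 ± 1745, n = 7). The 2 genotypes overlapped over most of their range. In PANDORA-seq the WT libraries ran from 7.41 to 33.7 RPM with a median of 12.5 (15.2 ± 8.36, n = 8), and the AD libraries from 9.59 to 30.7 RPM with a median of 13.6 (15.3 ± 6.87, n = 8). The genotypes overlapped here too, and every PANDORA-seq library lay far below every traditional-seq library.

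Mir143, the more abundant member of the mural cluster, ran from 1788 to 5319 RPM in WT traditional-seq libraries, with a median of 3035 (3213 ± 1156, SD, n = 7). In AD traditional-seq libraries it ran from 1832 to 6492 RPM with a median of 3831 (3655 ± 1735, n = 7). The ranges of the genotypes overlapped over most of their length. In PANDORA-seq it ran from 30.2 to 197 RPM in WT, with a median of 76.0 (86.6 ± 56.8, n = 8), and from 41.2 to 203.7 RPM in AD, with a median of 75.7 (94.2 ± 57.8, n = 8). The medians of the genotypes were nearly equal while libraries of 1 genotype differed several-fold.

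Mir145a, from the same cluster, was the least abundant member in every group. It ran from 21.4 to 121.02 RPM in WT traditional-seq libraries with a median of 49.7 (52.2 ± 34.2, SD, n = 7), and from 22.8 to 68.1 RPM in AD with a median of 41.7 (47.4 ± 19.4, n = 7). The highest WT value, replicate 2, stood apart from the next at 59.4 RPM. In PANDORA-seq it ran from 1.30 to 5.89 RPM in WT with a median of 3.27 (3.26 ± 1.46, n = 8), and from 1.33 to 7.50 RPM in AD with a median of 3.50 (3.71 ± 2.02, n = 8). The genotypes overlapped in both protocols.

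**Figure D1:**
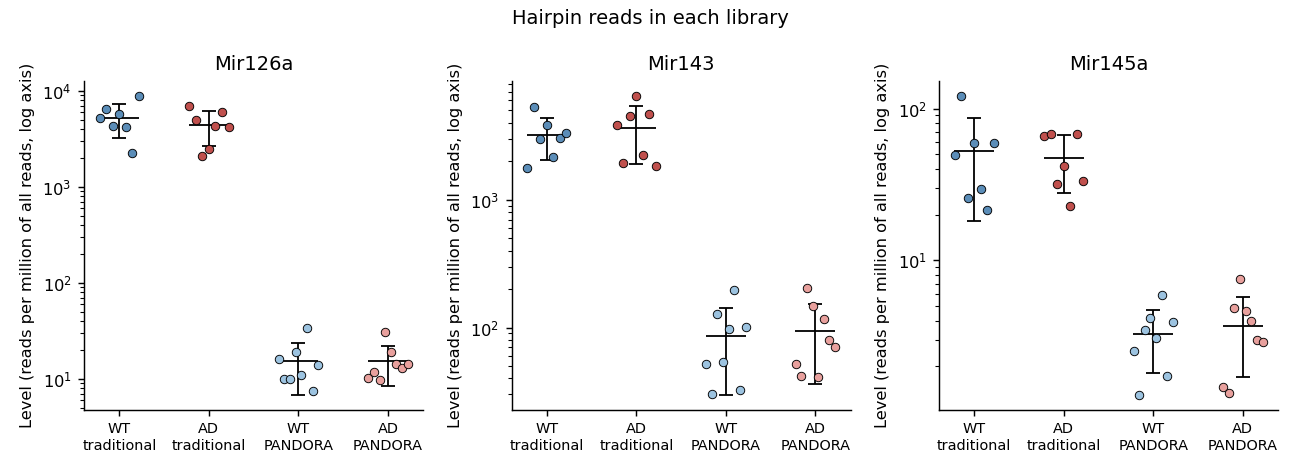
RPM (log axis) of Mir126a, Mir143 and Mir145a in each library, by genotype and protocol, with a bar for the group mean and its SD. Points of WT and AD overlap in every panel, and the PANDORA-seq libraries of each hairpin lie below all traditional-seq libraries, by 318 times for Mir126a, 38.0 times for Mir143 and 14.3 times for Mir145a on the means of exact matches.

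The size of that gap depends on the scale and on the match rule. In hairpin RPM of exact matches, Mir126a was 20.6 times lower in PANDORA-seq with no overlap of libraries. Mir143 was 2.38 times lower and Mir145a 1.11 times higher on that scale, both with overlap. With reads that carry 1 mismatch included, a comparison chosen after the data were seen, the traditional-seq mean in RPM was 406 times the PANDORA-seq mean for Mir126a, 58.7 times for Mir143 and 17.6 times for Mir145a, again with no overlap of libraries.

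The hairpins were compared with each other per length, as RPM divided by hairpin nt. In traditional-seq Mir126a stood at 66.3 RPM per nt and Mir143 at 54.5, with overlapping ranges, and Mir145a at 0.711 with no library near the other two. Within a library the ratio of Mir126a to Mir143 was 1.42 on average, ran from 0.327 to 2.52, and was above 1 in 11 of 14 libraries, so the order of this pair was not the same in every library. That order rests on exact matches too. With reads of 1 mismatch included, Mir143 stood at 109 RPM per nt and Mir126a at 90.8 on the means, and the ratio was 0.990 on average (0.241 to 1.82) and above 1 in 7 of 14 libraries. In PANDORA-seq Mir143 led with 1.44 RPM per nt, before Mir126a with 0.209 and Mir145a with 0.0498. The ratio of Mir126a to Mir143 was 0.183 on average (0.0406 to 0.397), and above 1 in 0 of 16 libraries, with 1 mismatch allowed or not. Mir143 exceeded its cluster neighbour Mir145a in every library of both protocols, by 90.6 times on average in traditional-seq (32.0 to 173) and by 29.3 times in PANDORA-seq (9.81 to 46.9). With 1 mismatch allowed the averages were 137 times (53.3 to 277) and 34.9 times (15.2 to 54.9). Division by length raises Mir143 (63 nt) against Mir126a (73 nt), and whether reads scale with hairpin length was not tested. Undivided, the traditional-seq medians with 1 mismatch allowed were 6557 RPM for Mir126a and 6309 for Mir143. Ligation also differs between sequences, so these are orders of reads per hairpin nt and not of molecules.

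The comparison of AD with WT asks which small RNAs change in this amyloid model. None of the 3 passed the test in either protocol. In traditional-seq, edgeR's quasi-likelihood test was run over 613 hairpins and called a hairpin at a Benjamini-Hochberg adjusted p under 0.05 and a change over 2-fold. It called 0 of the 3 members, beside a background of 0% of all hairpins called. At an unadjusted p under 0.05 there were 8 hairpins. DESeq2 called 0 (11 at an unadjusted p under 0.05) and the likelihood ratio test 0 (7). The log2 fold change, AD over WT, was -0.23 for Mir126a (SE 0.30, approximate 95% interval -0.81 to 0.35), 0.28 for Mir143 (SE 0.30, -0.31 to 0.87) and -0.01 for Mir145a (SE 0.33, -0.66 to 0.64), each with an adjusted p of 0.996. Without AD replicate 4 the Mir143 value was -0.02.

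In PANDORA-seq the same test over 838 hairpins called 0 of the 3 members, again beside a background of 0%. Here 187 hairpins had an unadjusted p under 0.05, DESeq2 called 6 (134 unadjusted) and the likelihood ratio test 7 (194). The log2 fold change in edgeR was -0.11 for Mir126a (SE 0.28, -0.66 to 0.44, adjusted p = 0.867), 0.15 for Mir143 (SE 0.49, -0.81 to 1.11, adjusted p = 0.882) and 0.09 for Mir145a (SE 0.39, -0.68 to 0.86, adjusted p = 0.922). Leaving out AD replicate 3 turned Mir143 to -0.46 and Mir145a to -0.20, and leaving out WT replicate 6 turned Mir126a to 0.12. The background of 0% did not hold without AD replicate 5. Of 847 hairpins 1 was then called higher and 44 lower, with the members not among them. AD replicate 3 held 13495 hairpin RPM of Mir143, against 3478 in the next AD library. Whether the genotype difference itself differed between protocols was tested over 987 hairpins, and 0 of the 3 members were called beside a background of 0%, with adjusted p from 0.859 to 0.997. That test had 84 hairpins at an unadjusted p under 0.05, DESeq2 called 0 (64) and the likelihood ratio test 0 (99).

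The comparison of protocols asks which RNAs the enzyme treatment brings into or takes out of view. All 3 members were lower in PANDORA-seq, in a test over 987 hairpins in which 31.7% were called lower and 51.9% higher. The log2 fold change, PANDORA-seq over traditional-seq, was -7.12 for Mir126a (SE 0.26, edgeR adjusted p = 2.07e-23), -3.91 for Mir143 (SE 0.34, adjusted p = 4.74e-13) and -2.58 for Mir145a (SE 0.29, adjusted p = 3.94e-10). Counted from the most lowered hairpin, Mir126a had rank 19 of 987 and Mir143 rank 119, and Mir145a lay above both. The median over all hairpins was 1.19, so relative to it the members stood at -8.30, -5.10 and -3.76. The Mir145a call depends on which hairpin reads enter the fit. With only the sequences that match 1 hairpin, which left out 7 of its own reads, its log2 fold change was -0.80 (SE 0.24, edgeR adjusted p = 0.00218), which did not reach 2-fold, and with a median of 1.04 over those hairpins it stood at -1.85 relative to it. Mir126a (-5.34) and Mir143 (-2.17) were still called lower there, beside 25.7% of hairpins lower and 50.2% higher. The main test treated all libraries as independent, although 14 library codes occur in both protocols and may pair them. With the code as a block in the fit, 31.5% of 978 hairpins were called lower and 51.7% higher.

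These values use TMM scaling, which sets the middle of the hairpins, and another scaling moves the zero line. With 62.1% of called hairpins higher under TMM, the share was 81.7% when libraries were scaled to their hairpin reads and 40.7% when scaled to all reads. Hairpin reads as a library size are the summed hairpin counts, in which a read that fits several hairpins counts in each. In hairpin RPM such a read counts once in the total, so the 2 scales differ. Scaled to hairpin reads, the log2 fold change in edgeR was -4.80 for Mir126a, -1.65 for Mir143 and -0.26 for Mir145a (adjusted p = 0.379), with a median of 3.43 over all hairpins. Mir145a was then no longer called. Scaled to all reads, the values were -8.31, -5.25 and -3.84 with a median of -0.71. With DESeq2 size factors in edgeR the median was 1.09. Relative to the median of all hairpins, which takes out a shift that all hairpins share, Mir126a lay between -8.33 and -7.59 over these 4 scalings, Mir143 between -5.10 and -4.53 and Mir145a between -3.78 and -3.13. The median also depends on which hairpins are tested and which reads are counted. With no filter on low counts it was 0.85 over 1967 hairpins. With sequences that match 1 hairpin the members stood at -6.39, -3.22 and -1.85 relative to it. With reads of 18 to 26 nt alone it was 0.26 over 821 hairpins, of which 35.2% were called lower and 43.2% higher. On simple means of hairpin RPM, Mir126a was 20.6 times lower in PANDORA-seq with no overlap of libraries, Mir143 was 2.38 times lower with overlap, and Mir145a was 1.11 times higher with overlap. A change of the yield of 1 hairpin and a change of the rest of the library cannot be told apart in shares of reads.

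**Figure D2:**
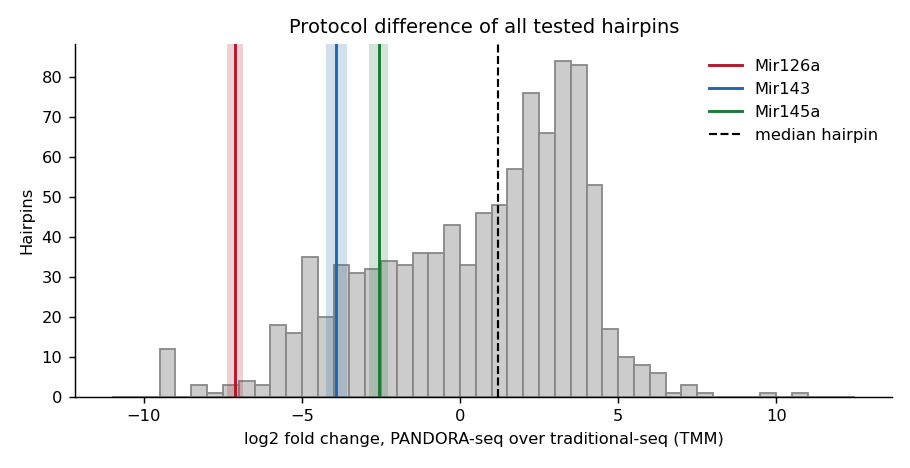
Log2 fold change, PANDORA-seq over traditional-seq, of the hairpins tested, as a histogram of the number of hairpins, with the 3 members as lines whose shading is 1 SE and the median of all hairpins dashed. Mir126a at -7.12, Mir143 at -3.91 and Mir145a at -2.58 lie on the lower side of the distribution, whose median is 1.19.

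The 2 arms of Mir126a and of Mir143 did not move together between protocols, as the arm shares given further on also show. Arms were set by whether the middle of a read lay before or after the middle of the hairpin, and 1346 arms of all hairpins were tested, of which 27.6% were called lower and 56.5% higher, with a median of 1.596. Of the 6 member arms, 4 were called lower. Mir126a 3p fell by 6.97 on the log2 scale (SE 0.26), Mir143 3p by 3.49 (SE 0.35), Mir145a 5p by 1.83 (SE 0.32) and Mir145a 3p by 2.62 (SE 0.32). Mir126a 5p had a log2 fold change of -0.65 (SE 0.25, edgeR adjusted p = 0.0166), which did not reach 2-fold, and Mir143 5p one of -0.14 (SE 0.30, adjusted p = 0.671). The direction of all 5p arms depends on the scale. In RPM Mir126a 5p was 4.64 times lower in PANDORA-seq and Mir143 5p 3.59 times lower, and in hairpin RPM they were 3.35 and 4.45 times higher, on means of libraries that overlapped between protocols on both scales. These 2 arms rest on few reads. Mir143 5p had 21 to 68 reads per traditional-seq library and 14 to 152 per PANDORA-seq library. Mir126a 5p had 29 to 262 and 45 to 358. Mir145a 5p was 1.38 times higher and Mir145a 3p 1.21 times lower in hairpin RPM, again with overlapping libraries. With libraries scaled to hairpin reads, an alternative chosen after the data were seen, edgeR gave 1.31 for Mir126a 5p (adjusted p = 3.13e-05), 1.74 for Mir143 5p (adjusted p = 3.04e-06) and 0.05 for Mir145a 5p (adjusted p = 0.879). Mir145a 3p was then at -0.70 and not called, and only the 3p arms of Mir126a (-5.04) and Mir143 (-1.66) were still called lower, beside 15.1% of all arms lower and 71.9% higher. Between genotypes 0 of the 6 arms were called in traditional-seq (background 0% of 744 arms), in PANDORA-seq (0% of 1151) or in the test of the genotype difference between protocols (0% of 1346).

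The leading arm is here the one with more reads over all libraries, which was 3p for Mir126a and Mir143 and 5p for Mir145a. For Mir126a and Mir143 its share was lower in PANDORA-seq. The Mir126a 3p arm held 99.6 to 99.9% of the hairpin's reads in traditional-seq libraries (mean 99.8 ± 0.0936, SD, n = 14) and 77.8 to 91.5% in PANDORA-seq libraries (83.9 ± 4.03, n = 16). The ranges did not overlap, and no reshuffling of libraries among 100000 gave a difference as large (permutation p = 1e-05, the smallest possible, adjusted p = 5e-05 over the 45 tests on read measures). The Mir143 3p arm went from 99.9% ± 0.0467 (n = 14) to 98.9% ± 0.381 (n = 16), also without overlap and with the same permutation p. Mir145a had no arm that dominated in traditional-seq. Its 5p arm held 45.97% ± 14.1 in traditional-seq (25.1 to 77.0%) and 65.3% ± 12.7 in PANDORA-seq (42 to 80.6%), with overlapping libraries (permutation test, adjusted p = 0.00331). Over all 255 hairpins deep enough to compare, the median change in the share of the arm that led in traditional-seq, by the mean of library shares, was -0.0183 percentage points. Mir126a at -15.9 points ranked 27 from the largest loss and Mir143 at -1.02 points ranked 79. The arms of Mir145a were near a tie in traditional-seq, where 5p led by pooled reads (4076 against 3975) and 3p by the mean of library shares. The mean share of its 3p arm changed by -19.3 points, which would rank 24, and that of its 5p arm rose by the same amount, so the sign of its change rests on which arm is taken to lead.

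**Figure D3:**
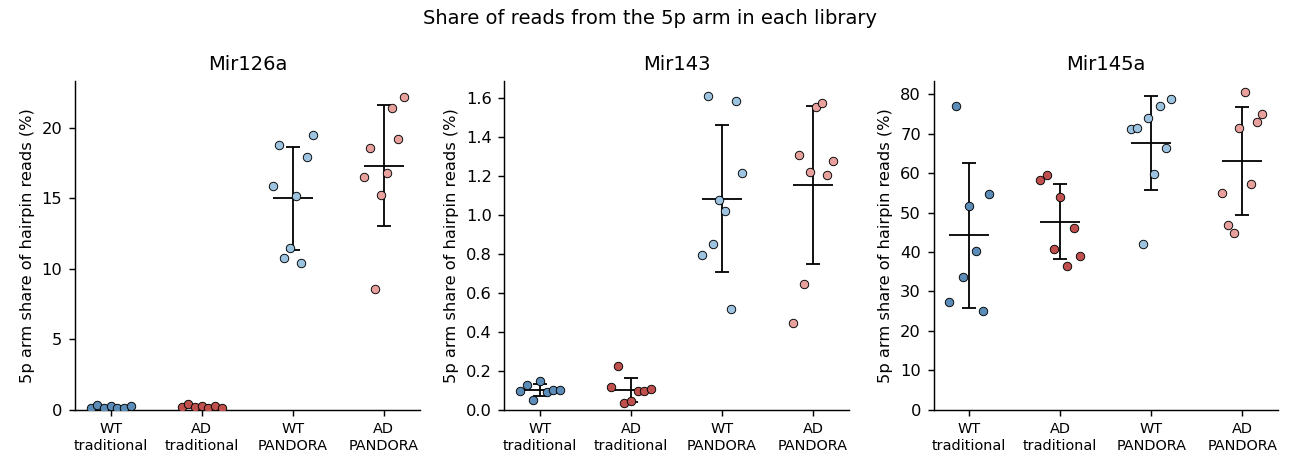
Share of each hairpin's reads that came from the 5p arm, in percent, in each library, by genotype and protocol, with the group mean and SD. In the Mir126a panel the traditional-seq libraries lie at the foot of the axis and all PANDORA-seq libraries above them, the counterpart of 3p shares of 99.6 to 99.9% and 77.8 to 91.5%, while the Mir145a values of both protocols overlap.

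Reads of the arm with more reads over all libraries, 3p for Mir126a and Mir143 and 5p for Mir145a, were shorter in PANDORA-seq for all 3 hairpins. The mean length of Mir126a 3p reads was 21.1 nt ± 0.0586 in traditional-seq (highest library 21.2, n = 14) and 20.2 nt ± 0.0793 in PANDORA-seq (20.1 to 20.4, n = 16). Mir143 3p went from 20.7 nt ± 0.0652 to 19.98 nt ± 0.154, and Mir145a 5p from 22.9 nt ± 0.0919 to 21.99 nt ± 0.0675. The Mir145a mean rests on 15 PANDORA-seq libraries, since AD replicate 1 held fewer than 50 reads of that arm. The most frequent length went from 21 to 20 nt for Mir126a 3p and from 23 to 22 nt for Mir145a 5p, and stayed at 21 nt for Mir143 3p, where its share was 56.8% in traditional-seq and 37.9% in PANDORA-seq. In none of the 3 did a PANDORA-seq library reach the traditional-seq range (permutation p = 1e-05 each, adjusted p = 5e-05). The shortening was not particular to these hairpins. Over 276 arms with at least 50 reads in every library, the median difference was -0.704 nt and 186 arms were shorter, and Mir126a 3p at -0.916 nt had rank 87 and Mir143 3p at -0.728 nt rank 136.

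In the leading arm of each hairpin, the 5′ ends, which set the seed, hardly moved. Reads of the Mir126a 3p arm began at the most frequent base, 46, in 90.1% ± 0.529 of traditional-seq reads and 89.6% ± 1.45 of PANDORA-seq reads (permutation test, adjusted p = 0.507). For Mir145a 5p the shares were 99.8% ± 0.329 and 99.7% ± 0.395 (adjusted p = 0.816 by permutation). Mir143 3p had 99.5% ± 0.0811 and 99.4% ± 0.152, and that small difference passed the permutation test (adjusted p = 0.00806). The 19 to 22 nt forms of Mir126a printed above differ at the 3′ end alone. Starts of the other arms were not tested, and those of Mir145a 3p were spread. Its most frequent traditional-seq form began at base 47, with 1073 of 3975 pooled reads. The top forms from bases 46 and 45 had 1043 and 390. In PANDORA-seq the most frequent form began at base 45, with 241 of 1446 reads. The top forms from bases 46 and 47 had 229 and 228. These are single forms, and each start holds reads of several lengths. In PANDORA-seq the second form from base 47 had 212 reads and that from base 45 had 101. The order of top forms is therefore not the order of starts, which was not compared between protocols.

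**Figure D4:**
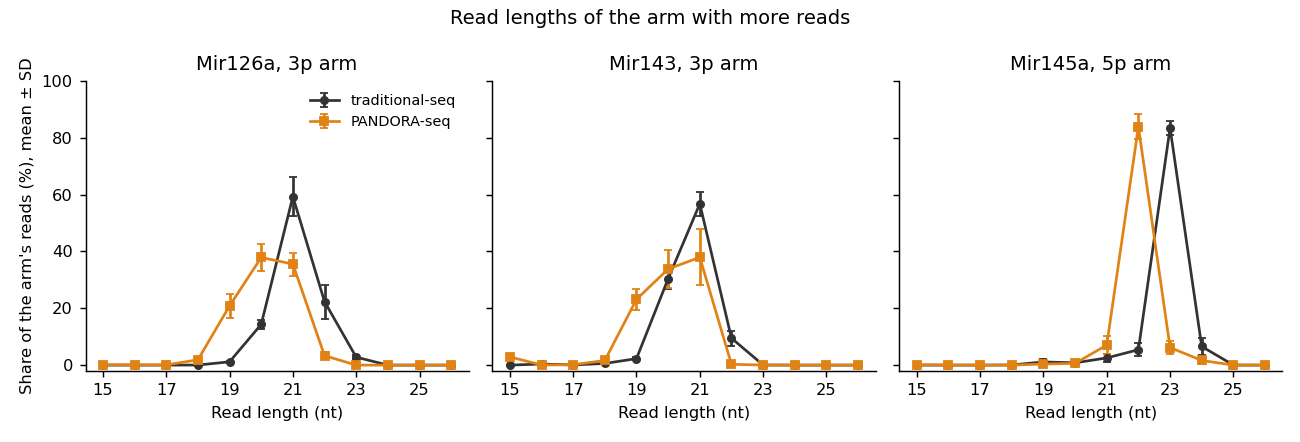
Share of the leading arm's reads at each read length in nt up to 26, by protocol, as the mean and SD over libraries. The peak of Mir126a 3p and Mir145a 5p sits 1 nt lower in PANDORA-seq, that of Mir143 3p stays at 21 nt, and mean lengths are 20.2 against 21.1 nt for Mir126a 3p, 19.98 against 20.7 nt for Mir143 3p and 21.99 against 22.9 nt for Mir145a 5p.

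Reads outside the usual miRNA lengths were few. Reads under 18 nt made up 0.00956% ± 0.00505 of the Mir126a 3p arm in traditional-seq and 0.303% ± 0.282 in PANDORA-seq (permutation test, adjusted p = 0.00027), and 0.425% ± 0.194 and 3.06% ± 0.695 of the Mir143 3p arm (adjusted p = 5e-05 by permutation). For Mir145a the shares were 0 and 0.175% ± 0.338 (adjusted p = 0.298 by permutation). Most of the short Mir143 reads in PANDORA-seq were 1 form of 15 nt that begins at the same base 40 as the full strand, with 3084 reads or 2.67% of the hairpin. Reads over 26 nt numbered 27 for Mir126a in traditional-seq and 231 in PANDORA-seq, 1 and 147 for Mir143, and 4 and 123 for Mir145a. In PANDORA-seq that came to 1.13%, 0.127% and 2.71% of each hairpin's reads.

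Reads with 1 mismatch to the hairpin were counted separately, because miRNAs can carry an added base at the 3′ end. The share of reads of the leading arm with a mismatched last base was 24.0% ± 9.43 for Mir126a in traditional-seq (11.9 to 37.5%, n = 14) and 1.92% ± 3.49 in PANDORA-seq (0.260 to 14.5%, n = 16). For Mir143 it was 45.2% ± 7.19 (31.8 to 56.2%) and 6.33% ± 1.16 (3.97 to 7.93%), and for Mir145a 20.8% ± 6.97 (13.5 to 36.5%) and 2.36% ± 1.26 (0.552 to 5.38%). All 3 fell (permutation p = 1e-05 each, adjusted p = 5e-05). The protocols did not overlap for Mir143 and Mir145a, and for Mir126a they overlapped through 1 PANDORA-seq library, AD replicate 1, without which its PANDORA-seq mean was 1.08% ± 0.964 (n = 15). In traditional-seq the added base of Mir126a was U in 65.7% and A in 32.7% of such reads, that of Mir143 U in 76.2% and C in 14.5%, and that of Mir145a C in 49.1% and A in 28.8%. An added base equal to the next base of the hairpin counts as an exact match. These shares therefore depend on each hairpin's own sequence. Whether an added base is a true addition or a sequencing error was not tested, and a mismatch at an inner position was at 0.213% per position for Mir126a in traditional-seq.

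**Figure D5:**
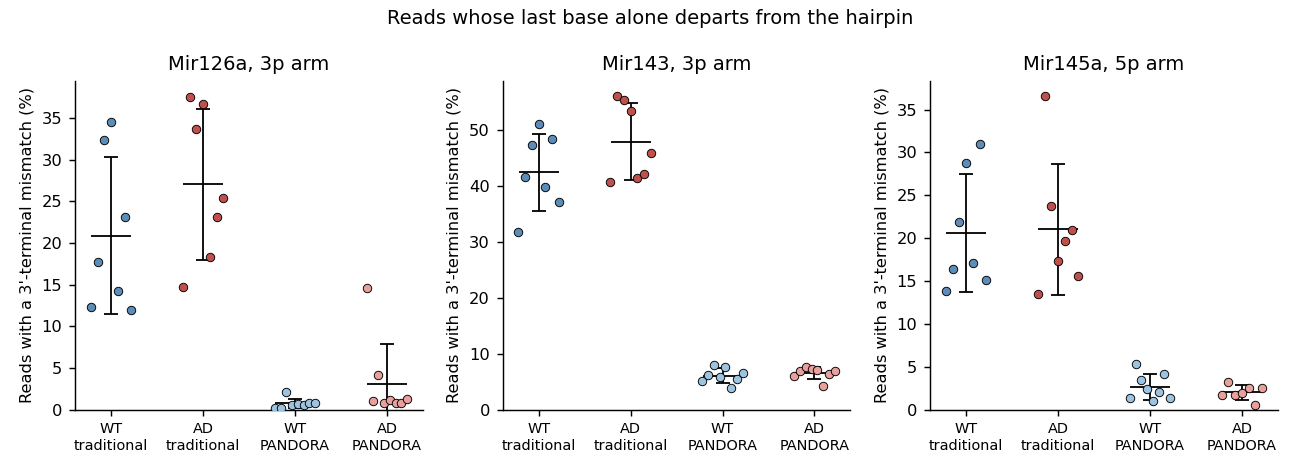
Share of the leading arm's reads whose last base does not match the hairpin, in each library, by genotype and protocol. Traditional-seq libraries run from 11.9 to 56.2% over the 3 hairpins, and PANDORA-seq libraries stay at or below 7.93% except 1 Mir126a value of 14.5%.

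No read measure passed the test between genotypes. Of the 45 permutation tests, 12 of the 15 between protocols passed an adjusted p of 0.05 and 0 of the 30 between genotypes did. With 1 library left out 12 passed each time, and with reads of 18 to 26 nt alone 9 did, since the shares of reads under 18 nt then cannot be compared and the start share of Mir143 3p no longer passed (adjusted p = 0.985 by permutation). The lowest genotype p was 0.0682 by exact permutation (adjusted p = 0.236), so 0 of 30 were under 0.05 without adjustment as well. The largest genotype differences in percentage points were in the mismatched last base. It was 27.1% in AD and 20.9% in WT for Mir126a in traditional-seq (exact permutation p = 0.231) and 47.9% and 42.5% for Mir143 (exact permutation p = 0.163). Both lay within the spread between libraries.

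Levels of the 3 hairpins were set against each other and against Mir451a, a miRNA of red blood cells, over libraries. The unit was log2 counts per 1000000 summed hairpin counts after TMM scaling, where a read that fits several hairpins counts in each. Of 15 relations, 3 passed after Benjamini-Hochberg adjustment. In PANDORA-seq Mir143 and Mir145a, the cluster neighbours, had r = 0.83 and rho = 0.83 (permutation p = 8e-05 and 0.00015, adjusted p = 0.0012 and 0.001125, n = 16), and r = 0.70 without the 2 libraries farthest from the median. Mir126a and Mir145a had r = 0.77 and rho = 0.87 there (permutation p = 0.00039 and 2e-05, adjusted p = 0.00292 and 0.0003), and r = 0.74 without the 2 farthest. In traditional-seq the cluster neighbours had r = 0.11 and rho = 0.11 (permutation p = 0.715 and 0.713, adjusted p = 0.768 and 0.823, n = 14), r = 0.25 without the 2 farthest. Mir126a and Mir451a had r = 0.72 and rho = 0.72 in traditional-seq (permutation p = 0.00385 and 0.00461, adjusted p = 0.0192 and 0.0231, n = 14), with r = 0.67 without the 2 farthest, 0.76 within WT and 0.66 within AD. In PANDORA-seq that pair had r = -0.29 and rho = -0.16 (permutation p = 0.269 and 0.556, adjusted p = 0.367 and 0.695). Whether residual blood takes part in the Mir126a levels was not tested. Between protocols, over 14 library codes that occur in both, Mir126a had r = -0.58 and rho = -0.63 (permutation p = 0.0274 and 0.0192, adjusted p = 0.0822 and 0.0576, r = -0.52 without the 2 farthest). On log2(RPM + 1) that relation passed (r = -0.81, permutation p = 0.00066, adjusted p = 0.00675, r = -0.56 without the 2 farthest), and whether a code marks 1 mouse is not given in the sources used here. Mir451a itself ran from 74.0 to 593 hairpin RPM in traditional-seq and from 129 to 804 in PANDORA-seq.

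The hairpins whose levels ran most like each member over the 14 traditional-seq libraries were named by Spearman's rho among 533 hairpins. For Mir126a they were Mir330 (0.94), Mir455 (0.92) and Mir339 (0.91), for Mir143 Mir708 (0.77), Mir23a (0.77) and Mir679 (0.75), and for Mir145a Mir16-1 (0.89), Mir326 (0.82) and Mir342 (0.82). Over the 16 PANDORA-seq libraries the same pairs had rho of 0.60, 0.27 and 0.68, of -0.12, -0.12 and 0.27, and of -0.01, 0.35 and 0.43. The likeness of Mir143 to Mir708 and Mir23a was thus not seen in the other protocol. These are descriptions across libraries that share depth and scaling.

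Other miRNAs linked to vessels and mural cells gave a wider view. The list held 22 hairpins, of which 21 had reads. Between genotypes 0 of 19 tested were called in traditional-seq, beside 0% of all hairpins (median log2 fold change 0.01, beside 0.02 over all). In PANDORA-seq 0 of 17 in the list were called, also beside 0% (median 0.24, beside -0.07). The 4 with the most reads, Mir222, Mir21a, Mir27b and Mir24-2, were among those not called. Between protocols 16 of 19 were called lower and 0 higher, beside 31.7% lower and 51.9% higher over all hairpins, with a median of -2.57 beside 1.19. Scaled to hairpin reads, 7 of 19 were called lower and 4 higher, beside 15.7% and 69.9% of all hairpins, with a median of -0.22 beside 3.43. The 4 higher were then the 3 copies of miR-199 and Mir221 (1.22). Under TMM those that fell included Mir322 (log2 fold change -5.14), Mir21a (-4.80), which is also made by many other cells, Mir27b (-4.59) and Mir221 (-1.11). The others that fell were Mir10a, Mir10b, Mir23a, Mir23b, Mir24-1, Mir24-2, Mir27a, Mir195a, Mir214, Mir222, Mir497 and Mir503. The 3 not called under TMM were copies of miR-199, Mir199a-1, Mir199a-2 and Mir199b, near-identical copies that share reads.

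Marker lists of other cells were read in the same libraries, as summed hairpin RPM. Hairpins of neuronal miRNAs summed to 418853 to 846668 in traditional-seq and 175245 to 483525 under PANDORA-seq, more than any other list, with reads that match several copies counted in each. Erythroid hairpins summed to 273 to 777 and 3121 to 29561, where Mir486 had 13856 reads in traditional-seq and 336574 in PANDORA-seq (log2 fold change 2.80) against -3.03 for Mir451a and -0.80 for Mir144, leukocyte and microglial hairpins to 168 to 1422 and 217 to 1322, and oligodendrocyte hairpins to 539 to 4122 and 1042 to 4023. None of these lists had a hairpin at 0 in any group. AD against WT called 0 hairpins of any of them in both protocols, beside 0% of all hairpins in each. Between protocols 5 of 8 neuronal, 4 of 5 leukocyte and 3 of 3 oligodendrocyte hairpins were called lower, and of 3 erythroid hairpins 1 was called lower and 1 higher, beside the same 31.7% and 51.9% of all hairpins. The neuronal hairpins are copies of miR-124, miR-9 and miR-128 that share reads, so calls of copies are not separate results. Under TMM the miR-9 copies were at a log2 fold change of -3.12 each and the miR-124 copies at -0.37 each. Scaled to hairpin reads, the lower calls were 2 of 8, 2 of 5 and 0 of 3, and 0 of 3 for the erythroid list, and the higher calls were 3 of 8 neuronal, 1 of 5 leukocyte, 0 of 3 oligodendrocyte and 2 of 3 erythroid hairpins, beside 15.7% lower and 69.9% higher over all. The vascular list itself summed to 16080 to 27832 in traditional-seq and 4560 to 26633 in PANDORA-seq. The part of the cell mix in the member levels was not tested.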

How the data were processed

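Small RNAs of 15 to 50 nt had been cut from gels of cortex RNA and made into libraries with a ligation kit, with or without prior T4PNK and AlkB treatment. The authors removed adapters and collapsed identical reads, and deposited for each library the distinct sequences, their lengths and their raw read counts, with no alignment, normalization or pooling. The trimmer is not given in the sources used here. The deposited counts were summed over sequences that matched whole, exactly and in the sense direction a GENCODE vM21 hairpin (GRCm38), with a matcher compiled with g++ 11.4.0. A sequence that fits several hairpins was counted in each. Groups came from the labels' genotype and treatment.

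Counts of hairpins and of arms went into edgeR 4.0.16 (R 4.3.3, TMM, filterByExpr with a smallest count of 10, quasi-likelihood test) within each protocol, between protocols with genotype as a covariate, and for the genotype by protocol interaction, all features of the table at once, with Benjamini-Hochberg adjustment. A call needed an adjusted p under 0.05 and a fold over 2. Arm share, read length, start and last base were compared by exact two-sided permutation tests of means (3432 splits of 7 against 7, 12870 of 8 against 8 and 6435 where a library had too few reads) or, between protocols, 100000 shuffles, in Python 3.11.15 with numpy 2.4.6, scipy 1.17.1 and pandas 2.3.3. DESeq2 1.42.0, the likelihood ratio test, other scalings, filters, read lengths and left-out libraries were alternatives. On simulated counts with 200 hairpins changed 4-fold, the test called 171 of 200 in traditional-seq, 179 in PANDORA-seq and 174 between protocols, with 4, 3 and 0 unchanged hairpins called.

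The members, the gene lists and the tests were chosen with earlier results of these data known. Named beyond the members were the 3 hairpins with the highest Spearman's rho in traditional-seq for each member and, from the vascular and mural list, those called and otherwise the 4 with the most reads. Lists of erythroid, leukocyte and microglial, neuronal and oligodendrocyte hairpins were read as markers. Figures were drawn with matplotlib 3.10.9. In tests within a protocol, p-values measure the spread between the libraries of a group. The main edgeR tests across protocols and the shuffles between protocols treated all libraries as independent. As 14 library codes occur in both protocols, pairing by mouse is possible, and those tests did not take it into account.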

Additional observations from a re-analysis of the deposited data

Results flagged for a closer look

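In each group the highest or lowest library was set against the others by Dixon's test at the 95% level, for levels and read measures of the 3 hairpins. Of 78 groups tested, 10 had a library that stood apart, and chance alone gives about 1 in 20.

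Mir126a stood high in WT PANDORA-seq replicate 6, at 33.7 RPM with the next library at 18.9, and in AD PANDORA-seq replicate 4, at 30.7 RPM with the next at 19.0. The mean length of its 3p reads stood high in WT PANDORA-seq replicate 7, at 20.4 nt. The share of its 3p reads with a mismatched last base stood high in WT PANDORA-seq replicate 3, at 2.10%, and in AD PANDORA-seq replicate 1, at 14.5% with the next AD library at 4.17%. In AD replicate 1 that base was G in 84 of 87 reads, and in the other 7 AD PANDORA-seq libraries, pooled, in 20.7% of 92 reads.

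Mir143 stood high in AD PANDORA-seq replicate 3, at 13495 hairpin RPM with the next library at 3478. Mir145a stood high in WT traditional-seq replicate 2, at 121.02 RPM and 314 hairpin RPM, with the next libraries at 59.4 and 132. The share of its 5p reads that began at the most frequent base stood low in AD traditional-seq replicate 5, at 99.0%, where the others were at 100%, and in WT PANDORA-seq replicate 1, at 98.6%. These shares rest on 102 and 148 reads of the arm. The tie of the other AD traditional-seq libraries fixes Dixon's statistic at 1, so the rate of 1 in 20 does not hold there.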

How the results depend on the processing

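No member was called between genotypes under any alternative run, for hairpins or arms. In traditional-seq 1 hairpin was called with no filter, and 0 to 1 when 1 library was left out (1 without AD replicate 3). In PANDORA-seq 6 were called by DESeq2, 7 by the likelihood ratio test and 1 with sequences that match 1 hairpin, and 0 to 45 without 1 library (45 without AD replicate 5). Between protocols 155 were called lower and 690 higher of 987 with hairpin reads as library size, 476 and 327 of 1011 with all reads, and 135 and 264, or 25.7% and 50.2% of those tested, with sequences that match 1 hairpin, and 812 of 1967 were higher with no filter. Mir145a was then at -0.26 (hairpin reads as library size) and -0.80 (sequences that match 1 hairpin), and no longer called. Mir143 5p turned to 0.21 with reads of 18 to 26 nt. Arms and lists under other scalings, member order and protocol ratios with 1 mismatch allowed, and values without AD PANDORA-seq replicate 1 for the last base, were added after seeing the data. With hairpin reads as library size the 5p arms turned to 1.31 (Mir126a), 1.74 (Mir143) and 0.055 (Mir145a).

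Uncalled genotype values changed sign. Mir126a in PANDORA-seq was 0.015 with all reads as library size and ran from -0.20 to 0.12 without 1 library. Without 1 library, Mir143 ran from -0.016 to 0.37 in traditional-seq and from -0.46 to 0.41 in PANDORA-seq, and Mir145a from -0.17 to 0.18 and from -0.20 to 0.31. The protocol difference in the Mir145a start share ran from -0.119 to 0.0178 percentage points. On log2(RPM + 1), 6 relations passed in place of 3, the added ones being Mir126a between protocols (r = -0.81), Mir126a with Mir145a in traditional-seq (0.67) and Mir143 with Mir451a in PANDORA-seq (-0.62, reversed). Also reversed was r at -0.40 for Mir145a with Mir451a in PANDORA-seq. The causes were not tested.

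Replicate numbers did not pair the libraries. The correlations of same-numbered deviations ran from -0.365 to 0.403 over 7 traditional-seq pairs and from -0.385 to 0.459 over 8 PANDORA-seq pairs. With a replicate block 0 hairpins were called in each genotype comparison, 514 higher and 315 lower between protocols, and Mir145a in traditional-seq was 0.0077. The annotated arm boundary could be applied to Mir126a 3p alone. Mir145a 5p had fewer than 50 reads in AD PANDORA-seq replicate 1, so its read measures there could not be given.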
